A study of Mus musculus with 12 samples.

Results

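Rab30, Ralgps1, Tbc1d8, Tctn2, Slc6a16 and Tlr12 form a set of 6 genes that were chosen by their measured values, namely the difference between statin-treated and chow-fed female livers. They are 6 of the 26304 genes with a read in any liver, and all 6 are among the 11968 genes tested, which exceeded 1 CPM (the count of a gene scaled to the total count of its liver) in at least 6 of 12 livers. Slc6a16 passed that filter through the 6 male livers and 1 statin-treated female liver, the remaining female livers lying below 1 CPM. Because the female livers chose these genes, their female values, and every comparison of a female with a male group, are given here as descriptions without a test. Only the comparison of statin-treated and chow-fed males was tested.

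The livers came from female and male C57BL/6J mice, an inbred strain, fed chow or the same chow to which simvastatin was added, for 4 weeks from an age of 8 to 10 weeks. Simvastatin is a statin, which blocks HMG-CoA reductase and so the supply of mevalonate. The 4 groups held 3 livers each and carried no engineered allele. The simvastatin dose was 0.1 g per kg, relative to food weight in the study's methods and to body weight in the sample labels. The labels also give a single feed formulation to both diets, whereas the methods assign it to the statin chow alone.

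Poly(A) RNA was sequenced to between 46066381 and 60419223 counts per liver. Of 8 hepatocyte markers, 7 had a value, with a summed level of 86349 to 158702 CPM. Xist, the non-coding RNA of the inactive X chromosome, was at or above 203.1 CPM in every female and at or below 0.969 CPM in every male, so each library had the sex on its label. In females 12 of the 11968 genes passed edgeR's test at an adjusted p under 0.05, which is 0.1% of the genes, 10 of them higher and 2 lower on statin. In males the count was 0 by edgeR (0%), 0 by limma and 4 by DESeq2 (0.0334%), with 234 genes (1.96%) at an unadjusted edgeR p under 0.05. The female count was 270 with DESeq2 (2.26%) and 13 with limma, and 1256 genes (10.5%) had an unadjusted edgeR p under 0.05. All 6 genes of the set were among the 12, in places 3, 4, 5, 6, 8 and 12 by p, a count fixed by the selection. The female count of 12 fell to 0 when either female chow replicate 2 or female statin replicate 3 was left out, and it was 75 without female statin replicate 2.

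The genes belong to different branches of cell biology. Rab proteins are small GTPases that mark membranes and direct vesicles between them. They carry a geranylgeranyl lipid made from mevalonate, the product of the enzyme that statins inhibit. Rab30 is a Rab of the Golgi apparatus. Tbc1d8 carries a TBC domain, the domain by which many proteins speed GTP hydrolysis on Rabs. Ralgps1 is an exchange factor that loads the small GTPases RalA and RalB with GTP. Tctn2 is a tectonic protein of the transition zone, the gate at the base of the primary cilium. Slc6a16 is an orphan member of the sodium-dependent neurotransmitter transporter family. Tlr12 is a Toll-like receptor of mouse innate immunity that recognizes a protozoan profilin.

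The 6 genes lay on 5 chromosomes of the GRCm38 assembly (GENCODE vM21 annotation). Rab30 (ENSMUSG00000030643.14) spanned chr7:92741603-92844535 on the plus strand with 9642 exonic bases. Slc6a16 (ENSMUSG00000094152.4) lay on the same chromosome at chr7:45241085-45273367, plus strand, with 3024 exonic bases. Tctn2 (ENSMUSG00000029386.15) lay at chr5:124598749-124627738 on the plus strand with 8318 exonic bases, and the annotation types it as a processed transcript. The 3 minus-strand genes were Ralgps1 (ENSMUSG00000038831.16) at chr2:33133417-33371486 with 7657 exonic bases, Tbc1d8 (ENSMUSG00000003134.10) at chr1:39371492-39478755 with 5239 and Tlr12 (ENSMUSG00000062545.4) at chr4:128615443-128618619 with 3177. Reads were counted over whole genes, so every value below sums all transcripts of a gene.

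Promoter sequence from RefSeq (GRCm38.p6) was matched for 5 of the 6 genes by symbol, with Rab30 unmatched. G and C made up 69.6% of the 250 bases before the first transcribed base in Ralgps1 and 68% and 69.2% in the 2 start sites listed for Tbc1d8, against 51.6% in Tlr12, 53.2% in Tctn2 and 52.4% in Slc6a16. Over all 32851 RefSeq promoters the median was 52.4%, with quartiles of 45.2% and 61.2%. Upstream sequences are shown for Ralgps1, the highest in G and C of the matched genes, for Tlr12, the lowest of them, and for Slc6a16, which held the only match to any motif searched, with that match in capitals. They cover chr2:33371495-33371744 (minus strand), chr4:128618620-128618869 (minus strand) and chr7:45240503-45240752 (plus strand), and each is written 5′ to 3′ on the strand of its gene.
Ralgps1: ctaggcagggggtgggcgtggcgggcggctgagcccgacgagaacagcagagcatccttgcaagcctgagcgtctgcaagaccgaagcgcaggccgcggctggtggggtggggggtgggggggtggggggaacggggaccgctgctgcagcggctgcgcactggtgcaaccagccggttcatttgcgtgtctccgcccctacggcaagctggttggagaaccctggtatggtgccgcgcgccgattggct
Tlr12: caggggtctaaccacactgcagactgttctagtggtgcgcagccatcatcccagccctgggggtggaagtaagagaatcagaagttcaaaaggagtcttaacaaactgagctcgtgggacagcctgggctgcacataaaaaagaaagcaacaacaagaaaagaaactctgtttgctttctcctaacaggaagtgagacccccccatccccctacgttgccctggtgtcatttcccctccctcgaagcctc
Slc6a16: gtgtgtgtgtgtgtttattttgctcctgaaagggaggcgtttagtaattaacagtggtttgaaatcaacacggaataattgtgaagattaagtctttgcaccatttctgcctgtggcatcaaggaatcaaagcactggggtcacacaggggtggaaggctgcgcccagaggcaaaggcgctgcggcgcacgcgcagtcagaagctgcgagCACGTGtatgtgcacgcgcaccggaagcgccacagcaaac
The motifs searched on both strands were the nuclear receptor half-site AGGTCA, a pair of these half-sites with 1 base between them, the E-box CACGTG, the sterol regulatory element TCACNCCAC and the STAT site TTCNNNGAA. The first 2 overlap, since a pair contains the half-site. Over the 250 upstream bases of all 32851 RefSeq promoters, AGGTCA was found in 14%, CACGTG in 6.02%, TCACNCCAC in 1.05% and TTCNNNGAA in 7.02%. The pair of half-sites was found in 0.0396% of the promoters when 50 bases past the first transcribed base were included. A match describes the letters of this window and is not a binding site.

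Rab30 was measured at 13.5, 12.4 and 15.9 normalized CPM in the chow-fed females (replicates 1 to 3) and at 31.9, 26.7 and 42.6 in the statin-treated females. Normalized CPM here are CPM after TMM scaling, in which a trimmed mean of log ratios sets the libraries to a common level. Every statin-treated female lay above every chow-fed female, and the group mean was 2.42-fold higher (33.7 ± 8.10 against 13.9 ± 1.80 CPM, SD, n = 3 each), a fitted log2 fold change of 1.27 (SE 0.18). The males were at 13.9, 16.8 and 13.4 CPM on chow and at 13.2, 11.5 and 10.5 on statin. The 3 statin-treated males all lay below the chow-fed males, by a log2 fold change of -0.33 (SE 0.18, 95% interval -0.72 to 0.06) that did not pass edgeR's test (adjusted p = 1.00). With scaling to library size alone these livers overlapped, the highest on statin being at 13.14 CPM and the lowest on chow at 13.09. In order of group mean, statin-treated females came first, followed by chow-fed males (14.7 ± 1.81 CPM) and chow-fed females, which differed by less than their spread, and then by statin-treated males (11.7 ± 1.36 CPM), whose livers overlapped with those of chow-fed females.

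Tbc1d8 and Ralgps1 were the 2 genes of the 12 that were lower in statin-treated females. Tbc1d8 stood at 45.8, 34.7 and 28.6 CPM in chow-fed females and at 15.2, 17.7 and 14.6 on statin. The groups did not overlap, and the mean was 2.30-fold higher on chow (36.4 ± 8.71 against 15.8 ± 1.68 CPM), a log2 fold change of -1.20 (SE 0.18). In males the values were 10.9, 12.1 and 14.9 CPM on chow and 14.7, 16.2 and 16.8 on statin. These groups overlapped (with library size alone the statin-treated males lay wholly above), and their log2 fold change of 0.33 (SE 0.18, 95% interval -0.05 to 0.72) had the opposite sign to that in females and did not pass (edgeR adjusted p = 1.00). The 3 groups other than chow-fed females had means of 15.9 ± 1.08 (statin-treated males), 15.8 and 12.6 ± 2.06 CPM (chow-fed males), of which the first 2 differed by less than their spread and the last overlapped with both.

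Ralgps1 likewise stood highest in chow-fed females. Its values were 25.3, 21.04 and 15.6 CPM in chow-fed females against 9.13, 8.70 and 5.62 in statin-treated females. The female groups were fully apart, with a mean 2.64-fold higher on chow (20.7 ± 4.87 against 7.82 ± 1.91 CPM, log2 fold change -1.40, SE 0.20). In males the gene was at 8.74, 9.01 and 9.03 CPM on chow and at 7.63, 7.22 and 7.55 on statin. The statin-treated males again lay wholly below the chow-fed males, with a log2 fold change of -0.26 (SE 0.20, 95% interval -0.69 to 0.17; edgeR adjusted p = 1.00). Apart from chow-fed females, neighbouring groups in the order of means differed by less than their spread (8.93 ± 0.163 in chow-fed males, 7.82 in statin-treated females and 7.47 ± 0.220 CPM in statin-treated males).

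Tctn2 was a gene of low level, at 1.18, 0.916 and 1.22 CPM in chow-fed females, which rested on 47 to 62 reads per liver. In statin-treated females it was at 2.42, 2.72 and 3.26 CPM, on 135 to 164 reads. The ranges were apart and the mean was 2.53-fold higher (2.80 ± 0.425 against 1.11 ± 0.167 CPM, log2 fold change 1.34, SE 0.21). Males were at 2.15, 2.59 and 2.70 CPM on chow and at 2.05, 2.28 and 1.79 on statin, with overlapping livers and a log2 fold change of -0.28 (SE 0.20, 95% interval -0.72 to 0.16; edgeR adjusted p = 1.00). Statin-treated females and chow-fed males (2.48 ± 0.295 CPM) differed by less than their spread, statin-treated males were next (2.04 ± 0.246 CPM), and chow-fed females stood below all of them.

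Slc6a16 had the largest female fold change of the set and the fewest reads. Chow-fed females held 4, 9 and 3 reads (0.0764, 0.176 and 0.0654 CPM), where 3 reads correspond to 0.0497 to 0.0651 CPM before TMM scaling, and statin-treated females held 38, 36 and 68 reads (0.682, 0.627 and 1.35 CPM). Summed over livers these were 16 and 142 reads, a ratio per library read of 7.91. The fitted log2 fold change was 3.02 (SE 0.43), and the means were 0.106 ± 0.0606 and 0.887 ± 0.403 CPM. Males held 57 to 69 reads per liver, at 1.29, 1.08 and 1.28 CPM on chow and at 1.42, 1.10 and 1.13 on statin. The male groups overlapped with both means at 1.22 CPM (SD 0.116 and 0.173) and a log2 fold change of 0.00 (SE 0.32, 95% interval -0.70 to 0.70; edgeR adjusted p = 1.00). The order of means was both male groups, then statin-treated females, whose livers overlapped with those of the males, then chow-fed females.

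Tlr12 was at 9.02, 5.67 and 8.42 CPM in chow-fed females and at 16.7, 15.9 and 17.6 in statin-treated females. These groups did not overlap, and the mean was 2.17-fold higher on statin (16.7 ± 0.838 against 7.70 ± 1.78 CPM, log2 fold change 1.12, SE 0.18). Males were at 13.8, 18.8 and 13.7 CPM on chow and 12.5, 12.8 and 13.7 on statin. After TMM scaling each statin-treated male lay below each chow-fed male, the closest livers being at 13.65 and 13.69 CPM. The groups overlapped with library size alone (up to 14.2 CPM on statin and from 13.3 on chow) and with DESeq2's size factors (up to 13.8 and from 13.6). The male difference was a log2 fold change of -0.25 (SE 0.17, 95% interval -0.63 to 0.13; edgeR adjusted p = 1.00). Statin-treated females and chow-fed males (15.4 ± 2.90 CPM) differed by less than their spread, followed by statin-treated males (12.98 ± 0.587 CPM) and, lowest, chow-fed females.

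**Figure D1:**
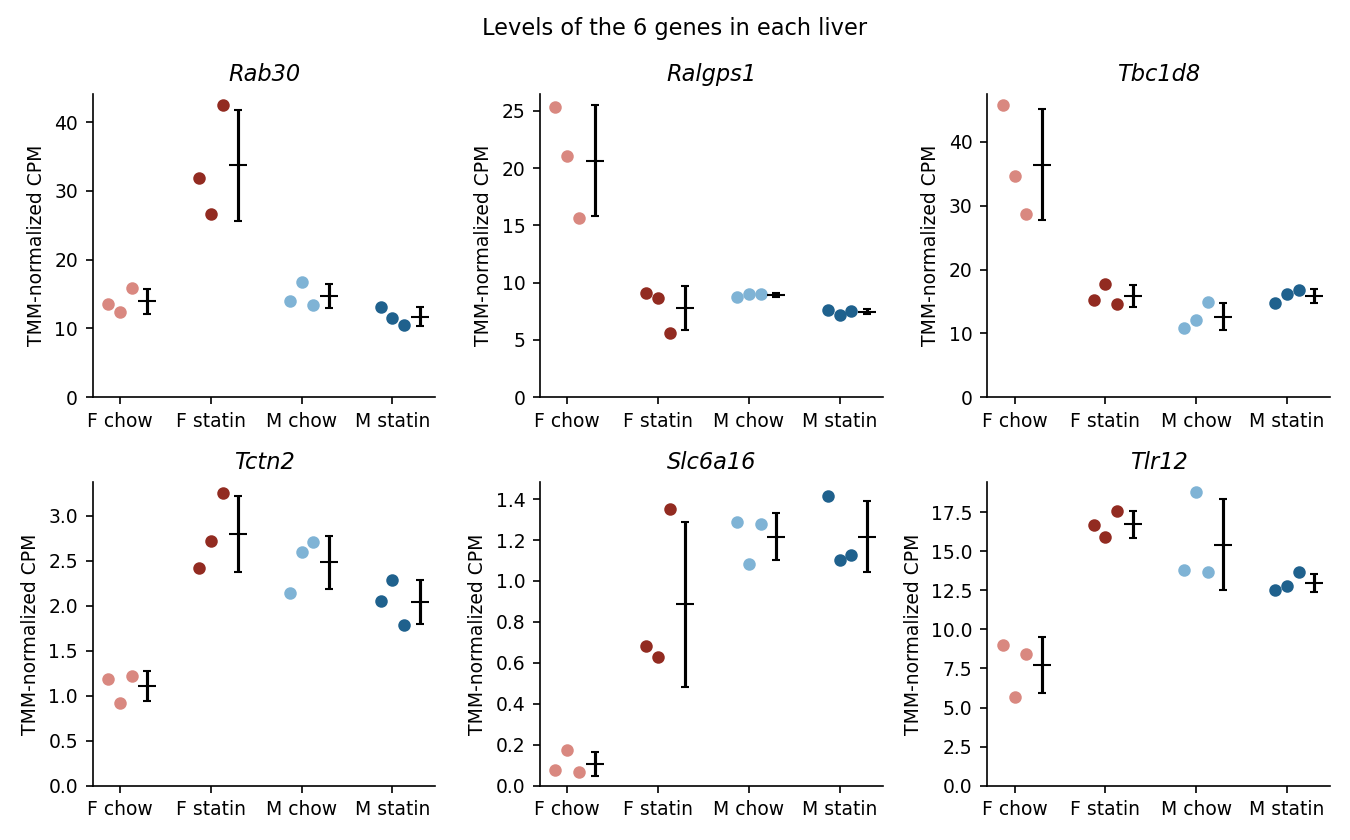
TMM-normalized CPM of the 6 genes in each of the 12 livers, 1 panel per gene, with points for livers and, beside them, the group mean and SD (n = 3). The female groups are apart in all 6 panels, with Ralgps1 and Tbc1d8 lower and the other 4 genes higher on statin, whereas Slc6a16 had a mean of 1.22 CPM in both male groups.

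In males, 0 of the 6 genes passed at an adjusted p under 0.05 by edgeR, DESeq2 or limma, against 0% of all genes by edgeR. The number at an unadjusted p under 0.05 was also 0 of 6 by edgeR and by DESeq2, beside 1.96% of all genes by edgeR. After TMM scaling the male livers were fully apart for 3 of the 6 genes, Rab30, Ralgps1 and Tlr12, each lower on statin, where 7.95% of all genes were apart in either direction (436 higher and 515 lower). The count was 2 of 6 with library size alone (Ralgps1 lower and Tbc1d8 higher, beside 7.86% of all genes) and 2 of 6 with DESeq2's size factors (Rab30 and Ralgps1 lower, beside 8.13%), so Ralgps1 alone was apart under all 3 scalings. In females all 6 were apart under each of these scalings, beside 12% of all genes (722 higher and 715 lower), a count that follows from the selection. The male fold changes ran from -0.33 to 0.33 on the log2 scale and the female ones from -1.40 to 3.02, where the median over all genes was 0.00 and 0.01. Rab30, Tbc1d8, Tctn2 and Tlr12 had opposite signs in the sexes, Ralgps1 was negative in both, and Slc6a16 had a male value of 0.00.

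**Figure D2:**
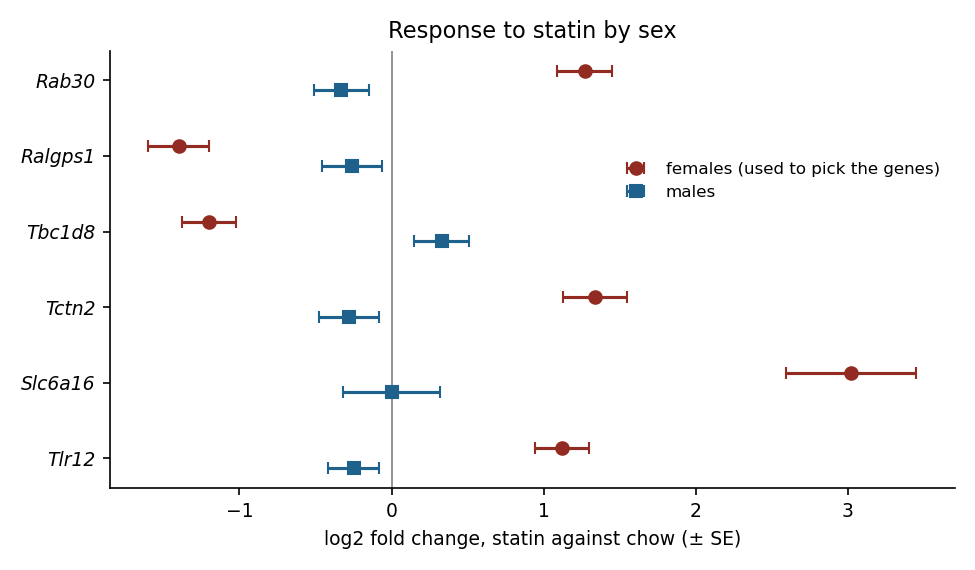
Fitted log2 fold change of statin over chow for each gene (horizontal axis) in females and males, with error bars of 1 SE from the edgeR fit of 12 livers and a grey line at 0. Female values (circles) lie between -1.40 and 3.02 and male values (squares) between -0.33 and 0.33.

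The level that the females left or reached was compared with the range of the 6 male livers. For Ralgps1 and Tbc1d8 all 3 chow-fed females lay above the males, by 1.21 and 1.53 on the log2 scale between the chow group means. For Tctn2, Slc6a16 and Tlr12 all 3 chow-fed females lay below the males, with log2 differences of -1.16, -3.52 and -1.0 between the chow groups. On statin the female means were closer to the chow-fed males for these 5 genes, with log2 differences of -0.19 (Ralgps1), 0.33 (Tbc1d8), 0.17 (Tctn2), -0.46 (Slc6a16) and 0.12 (Tlr12). Of the statin-treated females, 3 of 3 fell within the male range for Tlr12, 2 of 3 for Tbc1d8, and 1 of 3 each for Ralgps1, Tctn2 and Slc6a16. With library size alone these were 3 of 3 for Tlr12 and Tbc1d8, 2 of 3 for Ralgps1 and Tctn2 and 1 of 3 for Slc6a16. Rab30 took the opposite course. Its chow-fed females all lay within the male range of 10.5 to 16.8 CPM (log2 difference -0.08), and its statin-treated females all lay above it (log2 difference 1.20). The female livers of both diets entered the contrast that chose the genes, so these comparisons depend on the selection and carry no test. The share of all genes with such positions beside the male range was not computed, so the counts describe these genes alone.

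**Figure D3:**
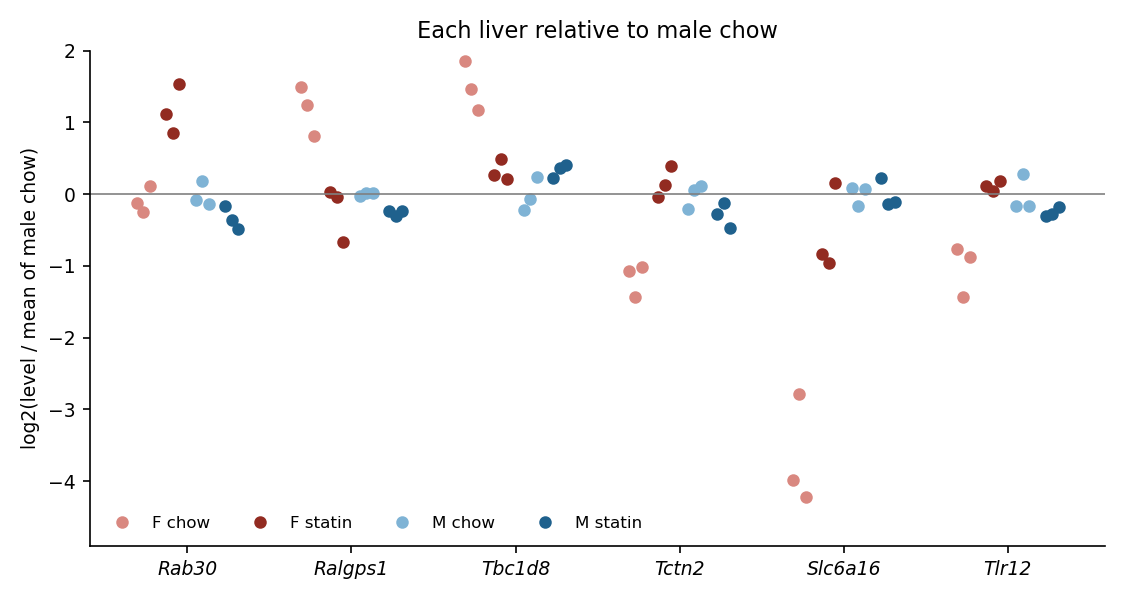
Log2 ratio of each liver to the mean of chow-fed males for the 6 genes, with points for livers by group and a line at 0 for the chow-fed male mean. Chow-fed females stand apart from the line for 5 genes, with log2 differences between group means from -3.52 (Slc6a16) to 1.53 (Tbc1d8), and for Rab30 the statin-treated females do so (1.20).

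Levels can be compared between genes only per length. Per kilobase of exon, chow-fed females had the most reads on Tbc1d8 (mean 6.95 CPM per kb), followed by Ralgps1 (2.70), Tlr12 (2.43), Rab30 (1.45), Tctn2 (0.133) and Slc6a16 (0.0350). In statin-treated females the order of the levels began with Tlr12 (5.26 CPM per kb), Rab30 (3.50), Tbc1d8 (3.02) and Ralgps1 (1.02). Tctn2 (0.337) and Slc6a16 (0.293) followed. Tlr12 also had the highest per-length level in males, at 4.85 CPM per kb on chow and 4.09 on statin.

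The course of each gene over the 12 livers was set beside every tested gene by Pearson correlation of log2(CPM + 1). These correlations contain the group differences, including the one that chose the genes, and are a description over livers that share groups of 3. Within the set Tctn2 and Tlr12 had the highest value (r = 0.929), ahead of Ralgps1 and Tbc1d8 (r = 0.896). The lowest values were those of Slc6a16 with Tbc1d8 (r = -0.902) and with Ralgps1 (r = -0.901). Rab30 was closest to Tctn2 (r = 0.560) and had r = 0.081 with Slc6a16.

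The genes most like Rab30 were Hsdl2 (r = 0.946), a peroxisomal dehydrogenase-like protein, Acot2 (r = 0.941), a mitochondrial acyl-CoA thioesterase, and Bhlhb9 (r = 0.936). Their female log2 fold changes were 0.69, 1.66 and 0.91, and the male ones were -0.18, -0.35 and -0.26. Acot2 passed edgeR's test in females (adjusted p = 0.0306), and Hsdl2 and Bhlhb9 did not (adjusted p = 0.126 and 0.104). The sign of these genes in females follows from their choice by likeness to Rab30. Ralgps1 and Tbc1d8 shared Tbc1d31, another TBC-domain protein, among their 3 nearest genes (r = 0.947 and 0.953). Ralgps1 was also close to Atf5 (r = 0.959), a stress-responsive transcription factor, and to Lgals9 (r = 0.941), the gene of galectin-9. Tbc1d8 was close to Tkfc (r = 0.945), which phosphorylates dihydroxyacetone and glyceraldehyde, and to Gdap2 (r = 0.942). The female log2 fold changes of these 5 ran from -1.29 for Tbc1d31 to -0.34 for Gdap2, none of which passed edgeR's test (adjusted p from 0.0968 to 0.2205), and the male ones from -0.08 to 0.13. Their sign in females follows from their choice by likeness to Ralgps1 and Tbc1d8.

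Slc6a16 was closest to Igf1 (r = 0.962), the growth factor that liver secretes under growth hormone. Igf1 averaged 329 ± 29.3 CPM in chow-fed and 488 ± 72.0 in statin-treated females (log2 fold change 0.57, SE 0.13, edgeR adjusted p = 0.129). In males it was at 551 ± 30.4 on chow and 545 ± 15.7 on statin. Gm4756 (r = 0.961) and Rif1 (r = 0.959), a regulator of replication timing and DNA repair, followed. Ermp1, an endopeptidase of the endoplasmic reticulum, was close to both Tctn2 (r = 0.930) and Tlr12 (r = 0.934), with a female log2 fold change of 0.71 and a male one of -0.18. The remaining close genes were Tgs1 (r = 0.947), which forms the trimethylguanosine cap of small nuclear RNAs, and 4933440N22Rik (r = 0.931) for Tctn2, and Inhbe (r = 0.929), the gene of the liver-enriched inhibin subunit beta E, for Tlr12. They had female log2 fold changes of 0.23, 1.60 and 0.69. As above, the female signs of the genes close to Slc6a16, Tctn2 and Tlr12 follow from their choice by likeness.

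The families around the 6 genes were read for whether they moved as a whole. Over 7 lists with 190 genes, of which 150 were tested and none was in the set, 0 genes passed edgeR's test in females at an adjusted p under 0.05. At an unadjusted p under 0.05 there were 15 (10%, beside 10.5% of all genes), limma called 0 and DESeq2 called 5 (3.33%, beside 2.26% of all genes). In males 0 passed by edgeR, DESeq2 or limma, and 1 had an unadjusted edgeR p under 0.05 (0.667%, beside 1.96% of all genes).

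Of 56 Rab GTPases 41 were tested, with a median female log2 fold change of 0.01. The smallest p-values were those of Rab12, an endosomal Rab (17.2 ± 0.351 CPM on chow and 21.9 ± 1.51 on statin, log2 fold change 0.35, SE 0.10, adjusted p = 0.219 by edgeR and 0.0326 by DESeq2), and Rab6a, a Golgi Rab like Rab30 (70.5 and 56.5 CPM, log2 fold change -0.32, SE 0.10, edgeR adjusted p = 0.277). The 13 genes of Rab prenylation and recycling were all tested, with a median of 0.01. Fntb, the beta subunit of protein farnesyltransferase, averaged 4.83 CPM on chow and 3.00 on statin (log2 fold change -0.69, SE 0.22, edgeR adjusted p = 0.280). The enzymes that place the lipid on Rabs, Rabggta and Rabggtb, were at 0.15 (SE 0.13) and 0.06 (SE 0.17), and Ggps1, which makes the geranylgeranyl donor, was at -0.05 (SE 0.26), each overlapping between the female groups.

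Among the TBC-domain proteins other than Tbc1d8, 34 of 36 were tested, with a median female log2 fold change of -0.03. Tbc1d31 averaged 23.1 ± 8.17 CPM in chow-fed and 9.41 ± 3.08 in statin-treated females (log2 fold change -1.29, SE 0.27, adjusted p = 0.0968 by edgeR and 0.00110 by DESeq2). In males it was at 7.39 and 8.03 CPM (log2 fold change 0.12). Sgsm1, another TBC-domain protein that binds Rabs, was at 10.4 ± 2.12 and 5.38 ± 1.04 CPM in females (log2 fold change -0.96, SE 0.22, adjusted p = 0.127 by edgeR and 0.00722 by DESeq2). Both therefore missed the threshold with edgeR and passed it with DESeq2. The median of the 20 genes of the Ral pathway, all tested, was 0.00. Exoc4, a subunit of the exocyst that Ral proteins bind, had a female log2 fold change of -0.31 (SE 0.14, edgeR adjusted p = 0.474) and a male one of -0.30 (SE 0.14). Rala, a GTPase that Ralgps1 acts on, had -0.26 in females (SE 0.14, edgeR adjusted p = 0.592) and 0.09 in males (SE 0.14). Ralgds, an exchange factor with the same substrates as Ralgps1, was the 1 gene of all lists with an unadjusted edgeR p under 0.05 in males (log2 fold change -0.81, SE 0.30, edgeR adjusted p = 1.00).

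Of 20 genes of the ciliary transition zone 15 were tested, with a median female log2 fold change of 0.07. Tmem216 and Iqcb1, both at the base of the cilium with Tctn2, had values of 0.56 (SE 0.25) and -0.67 (SE 0.32), with edgeR adjusted p = 0.457 and 0.516. Only 5 of 19 other SLC6 transporters passed the filter on low values, with a median of 0.05. The smallest p-values there were those of the GABA and taurine transporter Slc6a13 (0.19, SE 0.22) and the glycine transporter Slc6a9 (0.15, SE 0.30), with edgeR adjusted p = 0.894 and 0.962.

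Toll-like receptors and their signalling proteins had 22 tested genes of 26 and a median female log2 fold change of 0.01. Tirap, an adaptor of the receptors TLR2 and TLR4, averaged 35.4 ± 2.41 CPM in chow-fed and 23.1 ± 2.50 in statin-treated females (log2 fold change -0.62, SE 0.12, adjusted p = 0.0889 by edgeR and 0.000156 by DESeq2), and 22.8 and 25.0 CPM in males. Tlr5, the receptor of bacterial flagellin, was at 6.65 ± 2.02 and 13.5 ± 0.982 CPM in females (log2 fold change 1.02, SE 0.27, adjusted p = 0.184 by edgeR and 0.0234 by DESeq2) and at 13.4 and 11.8 CPM in males. Tlr5 thus had chow-fed females lowest, as Tlr12 did, while Tirap had chow-fed females highest. The remaining groups of Tlr5 differed by less than their spread (SD 4.34 in chow-fed and 3.53 in statin-treated males). Across the 7 lists the medians in females lay between -0.03 and 0.07 beside 0.01 for all genes, and in males between -0.04 and 0.02 beside 0.00.

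**Figure D4:**
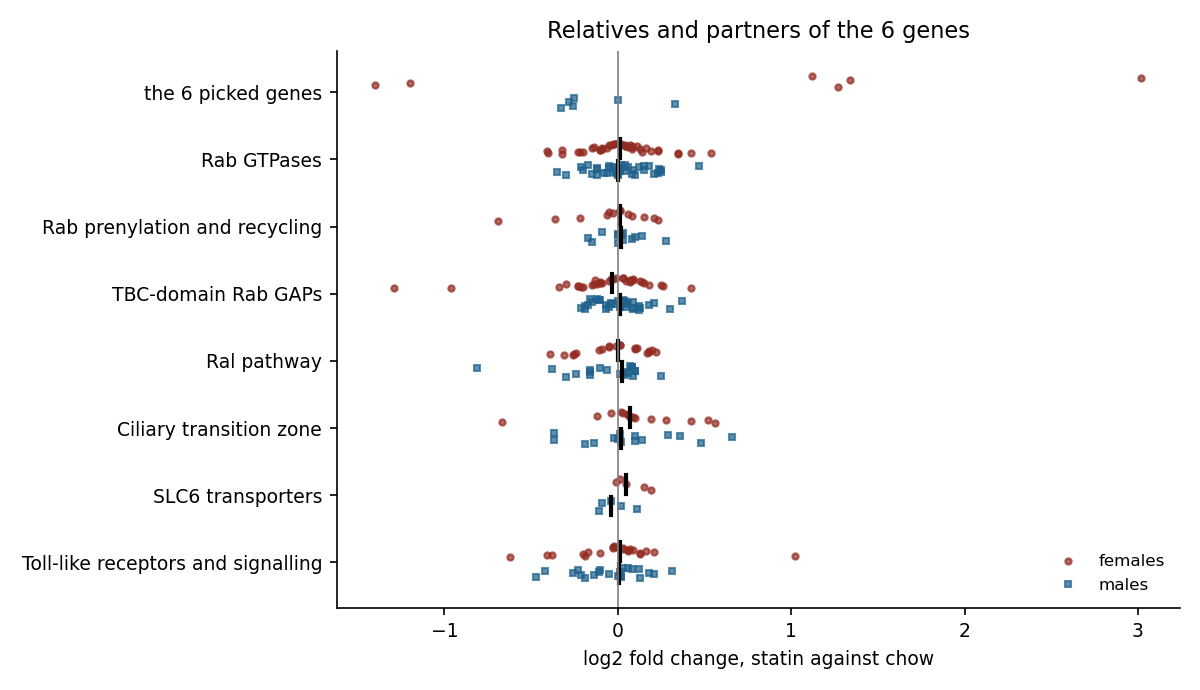
Fitted log2 fold change of statin over chow for each tested gene of the 7 lists in females (circles) and males (squares), with black bars at the list medians and the 6 chosen genes in the top line. Female list medians lie between -0.03 and 0.07, and the female points furthest from 0 in the lists are Tbc1d31 at -1.29 and Tlr5 at 1.02, neither of which passed edgeR's adjusted threshold.

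Genes that overlap the 6 genes or lie within 50 kb were examined, since unstranded counting would let overlapping genes share reads. The libraries were strand-specific, and the strand setting of the counting is not given in the sources used here. Among 28 annotated neighbours with a read 14 were tested, of which 0 passed in females by edgeR and by limma. DESeq2 called 1, Trpm4 (7.14%, beside 2.26% of all genes), and 2, Trpm4 and Atp6v0a2, had an unadjusted edgeR p under 0.05 (14.3%, beside 10.5% of all genes). In males 0 passed by edgeR. Angptl2, the gene of an angiopoietin-like secreted protein, lies within Ralgps1 on the opposite strand, overlapping it by 31649 bp, and averaged 22.1 CPM on chow and 20.7 on statin in females (log2 fold change -0.06, SE 0.29, edgeR adjusted p = 0.991). Rpl31, of the large ribosomal subunit, overlaps Tbc1d8 by 420 bp on the opposite strand and was at 81.8 and 72.6 CPM (log2 fold change -0.14, SE 0.25, edgeR adjusted p = 0.955). Whether reads were shared within either pair was not tested.

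The lncRNA 4632427E13Rik starts 134 bp from Rab30 on the opposite strand, and its female log2 fold change was 0.70 (SE 0.36, edgeR adjusted p = 0.554). Atp6v0a2, a subunit of the vacuolar proton pump 837 bp from Tctn2 on the same strand, had 0.28 (SE 0.12, edgeR adjusted p = 0.423), and Gtf2h3, 1068 bp away, had 0.22. Trpm4, a calcium-activated cation channel 29264 bp from Slc6a16, averaged 1.07 and 2.01 CPM in the female groups (log2 fold change 0.94, SE 0.26, edgeR adjusted p = 0.207). Slc6a21, the adjacent paralog of Slc6a16, was at 0 to 0.144 CPM in all livers, and whether the counting split reads between the paralogs cannot be told from these counts. The 2 tested neighbours of Tlr12, Zscan20 and Phc2, had female log2 fold changes of -0.20 and 0.02.

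**Figure D5:**
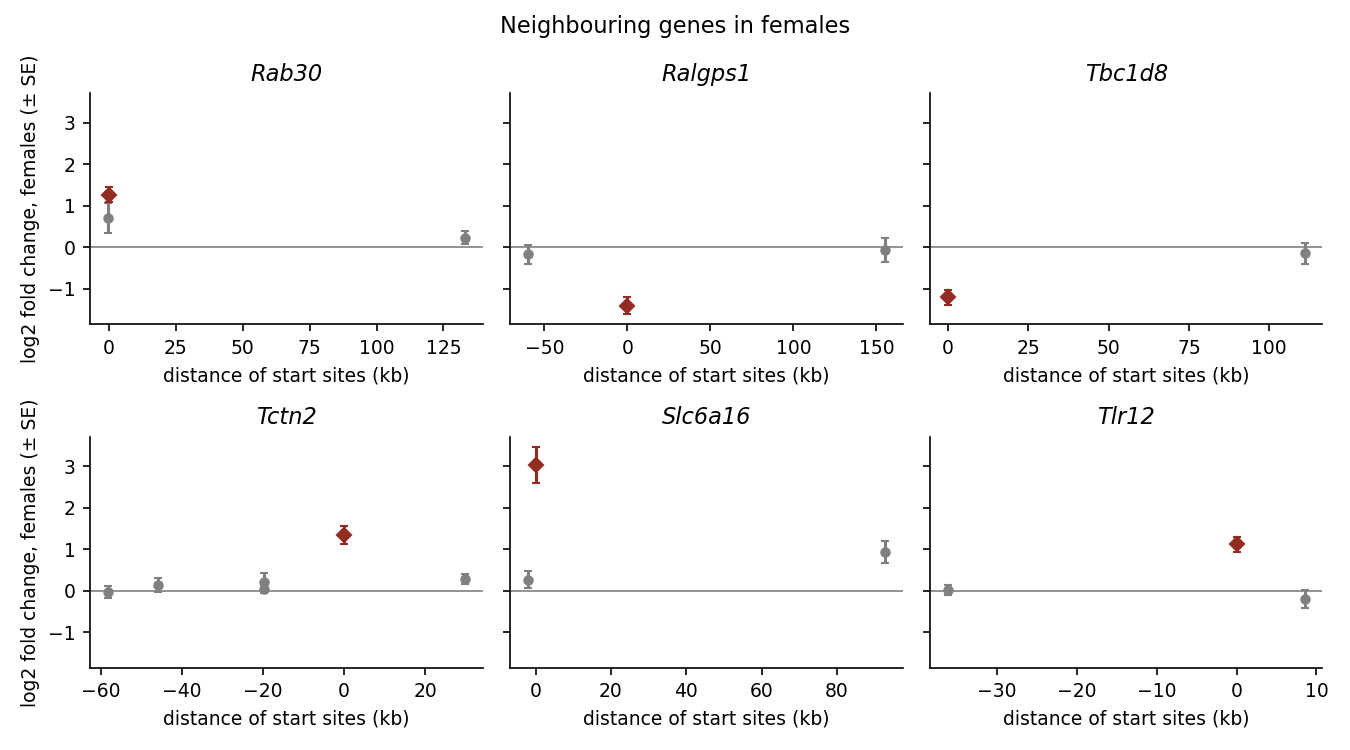
Fitted female log2 fold change of statin over chow (± SE) for each of the 6 genes (red diamonds) and its tested neighbours (grey points), against the distance between start sites in kb along the direction of the gene. The 14 neighbours lie between -0.20 (Zscan20) and 0.94 (Trpm4).

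Whole liver holds several cell types, and in bulk samples fewer cells of a type and less RNA per cell cannot be told apart. This touches Tlr12, which immune cells are known to express. The summed level of 12 Kupffer cell and macrophage markers was 800 to 1027 CPM in chow-fed and 707 to 1222 CPM in statin-treated females, and 471 to 729 and 459 to 598 CPM in the male groups. The female diets overlapped in this sum. For 8 dendritic cell markers, of which Flt3, Xcr1, Siglech and Ccr9 stayed below 1 CPM in all livers, the sums were 162 to 216 and 88.8 to 188 CPM in females and 94.0 to 133 CPM in males. Bst2 alone, at 79.0 to 204 CPM, made up most of this sum, and the other 7 reached at most 8.42 CPM. The 10 T, B and NK cell markers, with Cd3d and Ncr1 below 1 CPM throughout, were higher where Tlr12 was higher in females, at 16.5 to 22.0 CPM on chow and 23.2 to 34.8 on statin, and were at 10.7 to 21 CPM in males. Most of this sum was Ptprc, a gene of all leukocytes, at 7.32 to 23.5 CPM. The part of these cells in the Tlr12 difference was not tested.

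Of the other marker lists, 8 cholangiocyte markers, which bear on Tctn2 because bile duct cells carry cilia and hepatocytes do not, summed to 39.7 to 58.5 CPM in chow-fed and 32.2 to 64.4 CPM in statin-treated females. Sinusoidal endothelial markers ranged over 378 to 387 and 304 to 447 CPM, and stellate cell and fibroblast markers over 375 to 448 and 308 to 414 CPM, in the same groups. In these 3 lists the female diets overlapped. No marker of any list was at 0 in all livers, and 0 passed edgeR's or limma's test in either sex. Of the 44 markers tested, DESeq2 called 1 in females, a stellate cell marker (2.27%, beside 2.26% of all genes), and 5 had an unadjusted edgeR p under 0.05 (11.4%, beside 10.5%), both near the share over all genes. These 5 included the only 2 T, B and NK cell markers tested, both higher on statin in females (median log2 fold change 0.67).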

How the data were processed

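The authors deposited whole-number counts per gene for 11968 genes, in a table described as TMM-normalized, and CPM values for 48526 genes; submitters' notes name STAR 2.4.1a, HTSeq, edgeR 3.28.1 and GRCm38. Poly(A) RNA was read paired-end at 50 bp, and replicates were not pooled. All CPM values (100%) were whole reads within 0.02 reads, and 0 differed from the deposited counts, which were therefore used as raw counts. All columns were mapped to livers by their labels.

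Counts of the 12 livers were fitted in 1 edgeR 4.0.16 quasi-likelihood model with 4 groups and no covariate (TMM factors 0.924 to 1.05, common dispersion 0.038, prior df 4.14), with two-sided tests and Benjamini-Hochberg adjustment over 11968 genes. Standard errors were derived from each fold change and its F statistic. DESeq2 1.42.0 (3 genes without an adjusted p) and limma 3.58.1 on log2(CPM + 1) were alternatives, with R 4.3.3, Python 3.11.15, numpy 2.4.6, pandas 2.3.3, scipy 1.17.1 and matplotlib 3.10.9 (seed 7). Depth was 46066381 to 60419223 counts per liver.

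The 6 genes and the gene lists were chosen with earlier results of these data known. The text names the 6 genes, the 3 genes most correlated with each, list genes called or among the 2 smallest female p-values, neighbours within 50 kb, and markers by list totals. A result that this rule would name is not reported here. Rabggta, Rabggtb, Ggps1 and Ralgds were named after their values were seen. The fitting code was tested on simulated data. Same-numbered livers are different mice, so the numbers were not used to pair them.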

Additional observations from a re-analysis of the deposited data

Results flagged for a closer look

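Rab30 and Tlr12 stood out because, after TMM scaling, every statin-treated female lay above every chow-fed female while every statin-treated male lay below every chow-fed male. The female part of this pattern follows from the selection. After the same scaling, 515 of the 11968 genes were wholly lower in statin-treated males. The share of all genes with both parts was not computed. The male groups of both genes overlapped with library size alone, and those of Tlr12 also with DESeq2's size factors. On the log2 scale the female fold change exceeded the male one by 1.61 for Rab30 and by 1.37 for Tlr12. The difference between the sexes was not tested, since the female livers chose both genes. Groups of 3 livers are too small for a search for single livers far from the others.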

How the results depend on the processing

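The number of genes called in females was 12, and it was 270 with DESeq2, 148 with no filter on low counts, 2 with a filter of 10 CPM in 6 livers, 0 with each sex fitted alone and 5 with the replicate number as a block. Leaving out 1 liver at a time gave 0 to 75, with 0 for female chow replicate 2, female statin replicate 3, each chow-fed male and statin-treated male replicates 2 and 3. It gave 1 without male statin replicate 1, 2 without female chow replicate 1, 16 without female chow replicate 3, and 62 and 75 without female statin replicates 1 and 2. The cause was not tested. For list genes called in females, 0 became 5 with DESeq2, 3 with no filter and 0 to 1 over the livers left out (1 without female statin replicate 2). Genes called in males went from 0 to 4 with DESeq2. The male Slc6a16 value of 0.00 was -0.0018 with no filter, -0.0016 with limma and -0.12 to 0.066 over the livers left out, so it has no direction. No gene of the set was called in males under any alternative (lowest adjusted p 0.730, by edgeR). The female values kept their sign under all alternatives, which follows from the choice of the genes by these livers. Over the livers left out they lay between 2.61 and 3.59 for Slc6a16 and between 0.94 and 1.26 for Tlr12. On limma's log2(CPM + 1) scale the female values of Slc6a16 and Tctn2 were 0.75 and 0.85. Whether livers were apart was also read with library size alone and DESeq2's size factors, a comparison chosen after seeing the data, which gave 2 of 6 genes apart in males in place of 3. The stricter filter removed Ralgps1, Tctn2 and Slc6a16. Deviations of same-numbered livers correlated at -0.51 to 0.126. Differently numbered livers were not compared, so this range cannot decide whether the replicate numbers pair the livers. The block changed no call in males. The 3 to 9 reads per chow-fed female limit the size of the Slc6a16 fold change, and 3 livers per group limit all male intervals.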
